A study of Mus musculus with 10 samples.

Results

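Blood leukocyte RNA of mice after 12 h of sleep deprivation (SD 12 h) was compared with that of mice after 12 h of SASD, which the study calls a sleep restriction method reported earlier. The comparison rested on 2 of the 10 samples of the series, chosen by their labels, and on the 11295 of 32285 genes that averaged at least 25 counts over these libraries. All mice were of the strain C57/BL6J. The other samples were SD at 6, 24 and 48 h, SASD at 6, 24, 48 and 120 h, and a control group (Con). Blood was drawn behind the eye under pentobarbital into tubes with EDTA, and each library pooled the blood RNA of 3 mice. The means by which SD and SASD kept mice awake, and the clock time of blood sampling, are not stated in the labels used here. With 1 pooled library a side there was no replicate check, so no p-value is given. Intervals around ratios are 95% exact conditional binomial (Clopper-Pearson) intervals and cover counting error only. A ratio is that of SD 12 h over SASD 12 h throughout, and the median of a list is that of its log2 ratios.

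Neutrophils are short-lived granulocytes that leave the bone marrow under the control of granulocyte colony-stimulating factor and of chemokines that bind CXCR2. They carry calprotectin and preformed granules with antimicrobial proteins and proteases. Together with monocytes they are the main sources of interleukin-1β in blood. Stress hormones and inflammatory cytokines are known to raise the number of circulating neutrophils and to change transcription within them. In bulk RNA of blood, more cells of a type and more RNA per cell cannot be told apart.

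The SD 12 h library held 10445615 counts and the SASD 12 h library 9559914, within the range of 7825120 to 27501393 over the series. Haemoglobin genes, a measure of RNA from red cells, took 4.20% of counts in SD 12 h (exact binomial interval 4.19% to 4.21%) and 5.54% in SASD 12 h (5.52% to 5.55%). Of 1134 olfactory receptor genes, which blood cells are not thought to use, 47 had a count in SD 12 h and 45 in SASD 12 h. Ptprc, which encodes the leukocyte antigen CD45, had 16047 counts in SD 12 h and 13810 in SASD 12 h. On both measures the libraries of the 12 h pair lay close together and apart from SD 48 h, SASD 48 h and Con, in which haemoglobin genes took 0.275% to 0.727% of counts and 312 to 874 olfactory receptor genes had a count.

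Large differences at 12 h were mostly toward higher levels in SD. At least 2-fold higher in SD 12 h than in SASD 12 h were 320 genes, 2.83% of those measured, and 11 genes, 0.0974%, were at least 2-fold lower. Of single genes in lists, higher and lower are used in this sense. Counts of such genes in a list are to be read beside these shares of all measured genes. In a short list a count of 0 or 1 does not set the list apart from them. The counting interval lay wholly above a ratio of 2 for 167 of the genes and wholly below 0.5 for 0. Of the higher genes, 27 were past 4-fold and 7 past 8-fold, against 0 lower genes past 4-fold. The bulk of genes did not shift, with a median log2 ratio of 0.00 and 5th and 95th percentiles of -0.38 and 0.71. Without a fold limit the asymmetry was weaker but still present: 2092 genes had an interval wholly above a ratio of 1 and 1362 wholly below it. Higher genes occurred at every level of counting. They were 5.02% of genes with a mean count of 25 to 50, where the interval reached a median of 0.725 log2 units to either side, and 2.81% of genes that averaged 1000 counts or more, where it reached 0.0939. All 11 lower genes had a mean count under 100, and their number depended on the count minimum: 0 genes were lower with a minimum of 100, 79 with a minimum of 10 and 744 with 1 count in the pair, against 216, 444 and 1406 higher genes. Protein-coding genes made up 294 of the 320 higher genes (91.9%, against 94.0% of all measured), and 5 were annotated as antisense, whose reads cannot be told from those of the opposite strand.

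**Figure D1:**
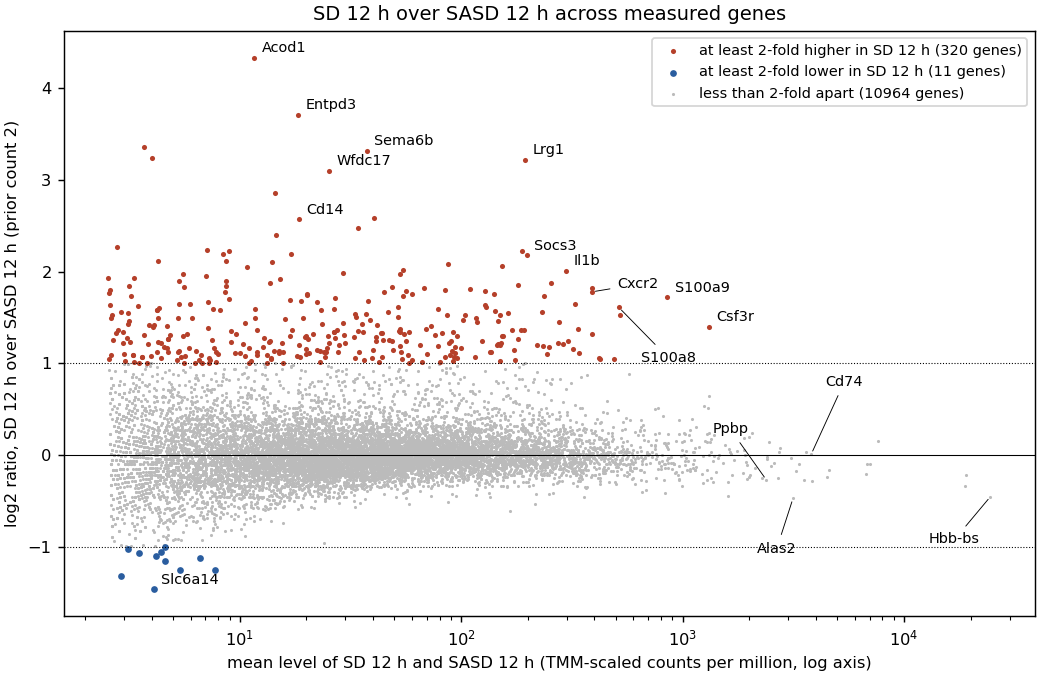
Log2 ratio of SD 12 h over SASD 12 h (vertical axis, prior count 2) against the mean level of both libraries in TMM-scaled CPM (horizontal log axis), 1 point a measured gene. The 320 red points above the upper dotted line outnumber the 11 blue points below the lower one, and red points lie at every level.

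The gene with the largest ratio was Acod1, which encodes the enzyme that makes itaconate in activated myeloid cells. It had 221 counts in SD 12 h and 9 in SASD 12 h, a level of 22.3 CPM (counts scaled to library size by TMM) in SD 12 h against 0.977 CPM in SASD 12 h, and a ratio of 22.8 (11.8 to 50.5). Entpd3, an enzyme that breaks down nucleoside triphosphates outside the cell, had 340 counts in SD 12 h against 23 in SASD 12 h, a ratio of 13.7 (8.99 to 21.9). Plin5, which coats lipid droplets, had 68 counts in SD 12 h and 5 in SASD 12 h, so that its ratio of 12.6 was known only to lie between 5.15 and 40.1. Lrg1, which encodes a leucine-rich glycoprotein stored in neutrophils, was both far apart and deeply counted. Its 3498 counts in SD 12 h and 346 in SASD 12 h gave a ratio of 9.38 (8.40 to 10.5).

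Sema6b, a membrane-bound semaphorin, stood at a ratio of 10.1 (7.81 to 13.4). Tgm1, a transglutaminase best known from skin, had a ratio of 11.3 (4.94 to 31.8) from 73 counts in SD 12 h against 6 in SASD 12 h. Wfdc17 and Wfdc21, small proteins with a WAP domain, had ratios of 8.75 (6.49 to 12.0) and 4.87 (3.23 to 7.58). Reads that map to several similar copies of such genes were not counted. Sycp2, a component of the meiotic synaptonemal complex, had a ratio of 7.54 (5.18 to 11.3). Lipid and metal handling were represented by Soat2, which esterifies cholesterol, at 5.62 (4.52 to 7.06) and by Steap4, a metalloreductase, at 6.06 (4.93 to 7.52).

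Surface receptors among the 20 highest included Cd14, the coreceptor for lipopolysaccharide, with 315 counts in SD 12 h against 48 in SASD 12 h and a ratio of 6.09 (4.48 to 8.43). Lilr4b, an immunoglobulin-like receptor of myeloid cells with a close copy next to it, had 3071 counts in SD 12 h against 610 in SASD 12 h and a ratio of 4.67 (4.28 to 5.10). Hcar2, a receptor for niacin and ketone bodies, stood at 4.64 (3.47 to 6.30). Rufy4, linked to autophagy in dendritic cells, had a ratio of 5.41 (3.89 to 7.70). Slc7a11, the cystine importer, stood at 4.74 (3.12 to 7.45) and Upp1, which splits uridine, at 5.45 (2.55 to 13.4) from 47 counts in SD 12 h against 8 in SASD 12 h. Vcan, which encodes versican and marks classical monocytes, had 117 counts in SD 12 h against 22 in SASD 12 h and a ratio of 4.93 (3.11 to 8.17). Socs3, the inhibitor that cytokines induce against their own signalling, had 3234 counts in SD 12 h and 663 in SASD 12 h, a ratio of 4.52 (4.16 to 4.93). Ier3, an early response gene, closed the 20 at 4.51 (3.01 to 6.98).

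**Figure D2:**
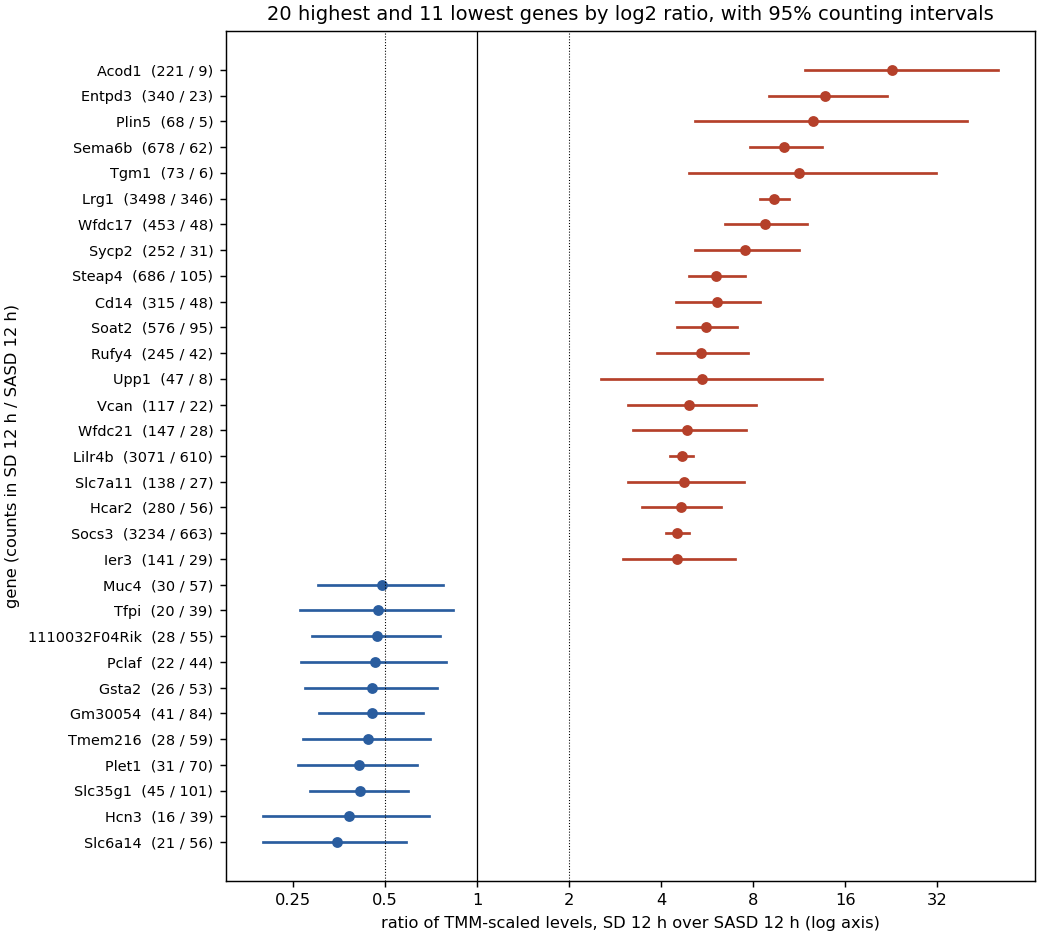
Ratio of SD 12 h over SASD 12 h (horizontal log axis) for the 20 genes with the highest and the 11 with the lowest log2 ratio, with 95% counting intervals as bars and the counts of SD 12 h and SASD 12 h beside each name. All 20 red intervals lie above a ratio of 2, whereas all 11 blue intervals cross 0.5.

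The promoters of 4 deeply counted or far separated genes are shown with the short motifs found in them. Each is the RefSeq sequence of 250 bases before to 50 after the start of the gene on GRCm38.p6, 5′ to 3′ on the strand of the gene, in lower case with the matched letters in capitals. Acod1 (chr14:103046762-103047061, plus strand) and Il1b (chr2:129371090-129371389, minus strand), the gene of interleukin-1β, each hold TATAAA, at positions -28 to -23 and -31 to -26, where -1 is the last base before the start. Socs3 (chr11:117969317-117969616, minus strand) holds a STAT motif, TTCNNNGAA, at -154 to -146. Lcn2 (chr2:32387690-32387989, minus strand), the gene of the granule protein lipocalin-2, holds a C/EBP motif, TTGCNNAA, at -216 to -209.
Acod1: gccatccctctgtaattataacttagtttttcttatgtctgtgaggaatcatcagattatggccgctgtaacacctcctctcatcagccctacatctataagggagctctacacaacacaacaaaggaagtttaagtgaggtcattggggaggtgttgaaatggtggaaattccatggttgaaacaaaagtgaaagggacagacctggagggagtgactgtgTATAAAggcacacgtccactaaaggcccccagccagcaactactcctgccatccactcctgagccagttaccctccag
Il1b: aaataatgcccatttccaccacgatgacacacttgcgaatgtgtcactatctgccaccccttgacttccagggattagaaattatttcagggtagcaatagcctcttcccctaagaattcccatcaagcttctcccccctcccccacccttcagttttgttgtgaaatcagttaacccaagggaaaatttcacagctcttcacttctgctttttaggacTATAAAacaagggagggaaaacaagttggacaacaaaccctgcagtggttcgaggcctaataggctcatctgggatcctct
Socs3: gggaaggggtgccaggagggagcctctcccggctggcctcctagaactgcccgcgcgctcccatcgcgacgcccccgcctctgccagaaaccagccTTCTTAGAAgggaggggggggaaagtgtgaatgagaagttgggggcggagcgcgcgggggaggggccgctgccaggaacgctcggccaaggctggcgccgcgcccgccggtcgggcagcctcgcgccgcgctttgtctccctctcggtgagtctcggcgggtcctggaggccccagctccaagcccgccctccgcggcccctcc
Lcn2: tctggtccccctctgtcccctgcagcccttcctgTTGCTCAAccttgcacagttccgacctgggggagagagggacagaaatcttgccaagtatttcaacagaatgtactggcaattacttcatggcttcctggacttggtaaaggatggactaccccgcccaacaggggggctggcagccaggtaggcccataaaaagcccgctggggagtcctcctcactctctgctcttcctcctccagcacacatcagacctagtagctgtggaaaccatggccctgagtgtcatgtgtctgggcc

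Promoters of the same length were in the table for 246 of the 320 higher genes and for 8778 measured genes, and were searched on both strands. TATAAA was in 16.3% of the promoters of higher genes and in 6.90% of all. The C/EBP motif was in 14.6% of the promoters of higher genes and in 8.33% of all, and GAGGAAGT, bound by PU.1, in 7.32% of the promoters of higher genes and 3.53% of all. The AP-1 motif TGANTCA was in 6.50% of the promoters of higher genes and 4.86% of all, and the STAT motif in 9.76% of the promoters of higher genes and 7.10% of all. The NF-kB consensus was in 29 of the 246 promoters of higher genes (11.8%) and in 878 of all 8778. The cyclic AMP response element TGACGTCA ran the other way, in 0.407% of the promoters of higher genes and 3.34% of all. The glucocorticoid response element was in 0 of the 246 and in 0.0911% of all. A match says only that these letters lie in the window.

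Markers of mature neutrophils were the list with the highest median. Of 27 measured markers, 23 were at least 2-fold higher in SD 12 h, all 27 lay above 0, and the median log2 ratio was 1.39, against 0.00 over all measured genes. Their summed level was 7304 CPM in SD 12 h and 2981 in SASD 12 h. Csf3r, the receptor for granulocyte colony-stimulating factor, had 18987 counts in SD 12 h and 6683 in SASD 12 h, a ratio of 2.64 (2.56 to 2.71), and gained more CPM than any other gene, 1187. Ly6g, the surface antigen used to sort mouse neutrophils, had 88 counts in SD 12 h against 22 in SASD 12 h and a ratio of 3.71 (2.30 to 6.22). Il1r2, the decoy receptor that binds interleukin-1 without signalling, had 1055 counts in SD 12 h against 276 in SASD 12 h and a ratio of 3.55 (3.10 to 4.06). Hdc, which makes histamine, stood at 3.46 (3.14 to 3.82), and Clec4e, the lectin Mincle, at 3.95 (3.37 to 4.63). Both Ccrl2 and G0s2 were near 1, with ratios of 1.02 (0.600 to 1.75) and 1.03 (0.643 to 1.65) from 29 to 41 counts a library. The part of the neutrophil markers in the other gene groups was not tested.

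Of 16 measured genes in the list of secondary and tertiary granule genes, 9 were at least 2-fold higher in SD 12 h. All 16 lay above 0, with a median log2 ratio of 1.22. Not all members encode granule proteins, the receptor gene Ltb4r1 and the arginase gene Arg2 among them. Lcn2 had 2456 counts in SD 12 h and 544 in SASD 12 h, a ratio of 4.19 (3.81 to 4.60). Hp, haptoglobin, had 4916 counts in SD 12 h against 1449 in SASD 12 h and a ratio of 3.15 (2.97 to 3.34). Olfm4, olfactomedin, stood at 3.27 (2.03 to 5.44), Arg2, an arginase, at 3.43 (2.69 to 4.42), and Mmp8, the neutrophil collagenase, at 2.89 (2.66 to 3.15). Ltf, lactoferrin, had 86 counts in SD 12 h against 69 in SASD 12 h, a ratio of 1.16 (0.832 to 1.61). Of 13 primary granule and precursor genes, which are transcribed mainly in the bone marrow, 4 could be measured. Of these 0 were 2-fold apart, with a median of -0.04, and the list summed to 151 CPM in SD 12 h and 154 CPM in SASD 12 h. Its granule enzymes were at or near 0, Elane with 0 counts in both libraries and Mpo, myeloperoxidase, with 1 count in each.

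The list of calprotectin, annexins and other alarmins had 4 of 13 measured members at least 2-fold higher and a median of 0.81. The log2 ratios of 10 members lay above 0 and those of 3 below. Alarmins are proteins that activate other cells once released, which does not describe every annexin in the list. S100a9 had 13031 counts in SD 12 h and 3659 in SASD 12 h, a ratio of 3.30 (3.18 to 3.43), and S100a8, which encodes the other subunit of calprotectin, 7712 counts in SD 12 h against 2349 in SASD 12 h and a ratio of 3.05 (2.91 to 3.19). Anxa1, annexin A1, which limits neutrophil recruitment, followed at 3.06 (2.79 to 3.36) and S100a6, a related calcium-binding protein, at 2.13 (1.87 to 2.42). Anxa2 at 2.0 (1.87 to 2.14) fell just short of the 2-fold rule, which uses a prior count. Among WAP-type and stefin protease inhibitors 4 of 7 measured genes were higher, including Slpi, the secretory leukocyte protease inhibitor, at 2.53 (2.28 to 2.81).

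Of 12 measured genes of the family of interleukins 1 and 18 7 were at least 2-fold higher in SD 12 h, with a median of 1.13. Il1b had 4759 counts in SD 12 h and 1094 in SASD 12 h, a level of 479 CPM in SD 12 h against 119 CPM in SASD 12 h, and a ratio of 4.04 (3.78 to 4.31). Il1rap, the shared signalling coreceptor, stood at 3.40 (2.96 to 3.93). Among the inhibitors, Il1rn, the receptor antagonist, stood at 2.52 (2.16 to 2.94) and the decoy receptor Il1r2 at 3.55 (3.10 to 4.06). The gene of the related cytokine, Il18, had 42 counts in SD 12 h against 16 in SASD 12 h and a ratio of 2.44 (1.34 to 4.64), and its binding protein Il18bp 83 counts in SD 12 h against 30 in SASD 12 h and a ratio of 2.57 (1.67 to 4.04). Not all inhibitors stood higher: Sigirr, an inhibitory receptor of the family, was its lowest member at 0.864 (0.765 to 0.976). Il1a and Il1r1 were too low to measure.

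The inflammasome activates caspases that mature interleukin-1β, and 4 of 13 measured genes of this list were at least 2-fold higher. Mefv, which encodes pyrin, had 467 counts in SD 12 h and 108 in SASD 12 h, a ratio of 4.01 (3.25 to 4.99). Nlrp12, a NOD-like receptor of myeloid cells, stood at 3.50 (3.10 to 3.95), Nlrp3 at 2.50 (2.18 to 2.87) and Casp4, the caspase that binds intracellular lipopolysaccharide, at 2.58 (2.12 to 3.15). Casp1, which cleaves the precursor of interleukin-1β, was less far apart at 1.27 (1.07 to 1.52). The log2 ratios of 4 members lay below 0, the lowest at -0.21, and the median was 0.12.

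Of 32 genes of chemokines, TNF-family and other cytokine ligands, 19 could be measured and 2 (10.5%) were at least 2-fold higher, against 2.83% of all measured genes, with a median of 0.06. Osm, oncostatin M, had 192 counts in SD 12 h and 74 in SASD 12 h, a ratio of 2.41 (1.83 to 3.19), and Tnfsf14, the ligand LIGHT, 902 counts in SD 12 h against 364 in SASD 12 h and a ratio of 2.30 (2.03 to 2.60). Ccl6, a chemokine of myeloid cells, had 3286 counts in SD 12 h against 1709 in SASD 12 h and stood at 1.78 (1.68 to 1.89). Tnf had 23 counts in SD 12 h and 33 in SASD 12 h, a ratio of 0.647 (0.362 to 1.13) that does not part the libraries. Il6 had 1 count in SD 12 h and 0 in SASD 12 h.

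Of 23 measured chemoattractant receptors and adhesion genes 8 were higher, and all 8 were receptors. Cxcr2 had 5991 counts in SD 12 h and 1619 in SASD 12 h, a ratio of 3.43 (3.25 to 3.63), and its neighbour Cxcr1, which binds an overlapping set of chemokines, 104 counts in SD 12 h against 36 in SASD 12 h and a ratio of 2.68 (1.82 to 4.03). Ccr1, a chemokine receptor, stood at 2.98 (2.73 to 3.26) and C5ar1, the receptor for complement C5a, at 2.83 (2.57 to 3.12). The formyl peptide receptors Fpr1 and Fpr2, which detect bacterial peptides, stood at 2.86 (2.26 to 3.66) and 2.74 (2.26 to 3.33). Pecam1, an adhesion molecule shared with platelets and endothelium, stood at 0.891 (0.853 to 0.930).

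Cytokine receptors had 6 of 29 measured genes at least 2-fold higher, Socs3 among them. Csf2rb, the signalling chain for GM-CSF and interleukin-3, had 2822 counts in SD 12 h and 722 in SASD 12 h, a ratio of 3.63 (3.34 to 3.94). Its near copy Csf2rb2 stood at 3.02 (2.42 to 3.78), and reads that map to both were not counted. Il13ra1, a receptor chain for interleukins 4 and 13, stood at 3.51 (3.16 to 3.90), and Tnfrsf1a, the main TNF receptor, at 2.36 (2.16 to 2.58). Il7r, a receptor of lymphocytes, lay below 1 at 0.806 (0.772 to 0.843).

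Among Toll-like receptors and adaptors 4 of 17 measured genes were higher, led by Cd14. Tlr2, which detects bacterial lipoproteins, had 411 counts in SD 12 h and 116 in SASD 12 h, a ratio of 3.29 (2.67 to 4.07), and its partner Tlr6 stood at 2.31 (1.91 to 2.80). Tlr13, which detects bacterial ribosomal RNA in mice, stood at 2.17 (2.0 to 2.36). The adaptor Myd88 was at 1.94 (1.75 to 2.15). Of Fc receptors, C-type lectins and Trem receptors 11 of 24 were higher and the median was 0.89. Trem1, which amplifies Toll-like receptor signals, had 874 counts in SD 12 h against 233 in SASD 12 h and a ratio of 3.48 (3.01 to 4.04), and Cd300lf, an inhibitory receptor, 3610 counts in SD 12 h against 1009 in SASD 12 h and a ratio of 3.32 (3.09 to 3.56). Treml2 was at 0.899 (0.864 to 0.935).

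Transcription factors and feedback genes differed by family. The C/EBP factors Cebpb and Cebpd drive emergency granulopoiesis and acute phase genes. Cebpb had 2069 counts in SD 12 h against 837 in SASD 12 h, a ratio of 2.29 (2.12 to 2.49), and Cebpd 1059 counts in SD 12 h against 368 in SASD 12 h, a ratio of 2.67 (2.37 to 3.01). Dusp1, a MAP kinase phosphatase that glucocorticoids and stress both induce, had 4858 counts in SD 12 h against 1731 in SASD 12 h, a ratio of 2.60 (2.46 to 2.75). These with Il1r2 were the 4 of 21 measured glucocorticoid-linked genes that were higher. Tsc22d3, which encodes GILZ and is among the genes that glucocorticoids induce most directly, had 10312 counts in SD 12 h against 8676 in SASD 12 h and a ratio of 1.10 (1.07 to 1.13). The median of the list was 0.45.

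Immediate early genes had 4 of 20 measured members at least 2-fold higher, all of them AP-1 or ATF factors. Fosl2 led with 1932 counts in SD 12 h and 574 in SASD 12 h, a ratio of 3.12 (2.84 to 3.43), ahead of Junb at 2.15 (2.02 to 2.29), Fos at 2.14 (1.91 to 2.41) and Atf3 at 2.04 (1.51 to 2.76). Among NF-kB subunits and feedback inhibitors 2 of 20 were higher, Ier3 and the TNF-induced gene Tnfaip2, which stood at 2.59 (2.40 to 2.79). Nfkbia, the inhibitor that NF-kB induces first, was at 1.34 (1.26 to 1.42) and Tnfaip3, the ubiquitin-editing enzyme A20, at 0.923 (0.819 to 1.04). In the core clock 1 of 18 measured genes was higher (5.56%, against 2.83% of all measured genes), the repressor Nfil3. It had 308 counts in SD 12 h against 84 in SASD 12 h and a ratio of 3.40 (2.66 to 4.38). Per2 fell just short at 2.01 (1.56 to 2.62), Per1 stood at 1.44 (1.31 to 1.58), and the clock repressor Nr1d2 lay below 1 at 0.797 (0.688 to 0.924).

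Stress programmes of protein folding had medians near 0. Of 13 measured heat shock and cold-inducible genes 0 were 2-fold apart, where 2.83% of all measured genes were higher, and the median was 0.02. The interval lay wholly above a ratio of 1 for 5 of the 13 and wholly below it for 1. Log2 ratios ran from -0.21 for Hspd1 to 0.92 for Hspa1b. The endoplasmic reticulum stress list had 1 of 14 higher (7.14%), Xbp1, at 2.11 (1.93 to 2.31), with a median of 0.03. The chaperone Hspa5 stood at 1.10 (1.03 to 1.16) and Ddit3, the pro-apoptotic factor CHOP, at 1.39 (1.12 to 1.72).

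Metabolic lists had low medians with a few genes far apart. In glucose uptake and glycolysis 3 of 24 measured genes were higher, all at the entry of the pathway: Hk3, the hexokinase of myeloid cells, at 2.54 (2.21 to 2.93), and the glucose transporters Slc2a6 at 2.29 (2.0 to 2.63) and Slc2a1 at 2.0 (1.76 to 2.28). Antioxidant genes had 3 of 19, namely Slc7a11, Gsr, glutathione reductase, at 2.08 (1.98 to 2.18) and Hmox1, haem oxygenase, at 2.03 (1.66 to 2.50). Prostaglandin and leukotriene genes had 3 of 16, with a median of -0.03, and 7 members lay above 0 and 9 below. The 3 were Alox5, the first enzyme of leukotriene synthesis, at 2.62 (2.28 to 3.02), Ltb4r1, the leukotriene B4 receptor, at 2.59 (2.02 to 3.35), and Ptger2, a prostaglandin E2 receptor, at 2.54 (1.83 to 3.59). Adenosine and uridine handling genes had 3 of 10 measured members higher and a median of 0.20, and 6 lay above 0 and 4 below. Among them P2ry2, which senses ATP and UTP, stood at 3.06 (2.24 to 4.25) and Entpd1, the enzyme CD39, at 2.26 (2.05 to 2.50), whereas Adk, adenosine kinase, stood at 0.630 (0.459 to 0.862). Lipid genes had 2 of 18, the fatty acid carrier Fabp5 at 2.14 (1.33 to 3.53) and the lipid droplet coat Plin2 at 2.09 (1.76 to 2.49). None of the 7 measured subunits of the phagocyte NADPH oxidase was 2-fold apart, and their median was 0.27. Complement genes had 2 of 10 measured members higher, C5ar1 and Cfp, which encodes properdin.

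Of 28 measured interferon-stimulated genes 1 was at least 2-fold higher (3.57%, against 2.83% of all measured genes). The log2 ratios of 22 lay above 0, and the median was 0.28. The interval lay wholly above a ratio of 1 for 17 and wholly below it for 1. Oasl2 had 1714 counts in SD 12 h and 580 in SASD 12 h, a ratio of 2.74 (2.49 to 3.02), and Rsad2, viperin, the lowest member, had 12300 counts in SD 12 h against 13913 in SASD 12 h and a ratio of 0.820 (0.800 to 0.840). Of the 5 measured Ifitm genes, membrane proteins that block virus entry, 3 were higher. Ifitm1 had 1405 counts in SD 12 h against 307 in SASD 12 h and a ratio of 4.25 (3.75 to 4.82), Ifitm2 2169 counts in SD 12 h against 594 in SASD 12 h and a ratio of 3.39 (3.09 to 3.72), and Ifitm6 a ratio of 2.48 (1.97 to 3.13). Ifitm3 stood at 1.58 (1.44 to 1.74), and reads that map to several of these similar genes were not counted.

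Monocyte markers differed among themselves. Of 18 measured classical markers 4 were higher and 17 lay above 0, with a median of 0.47. Besides Vcan these were Tgfbi, an extracellular matrix protein, at 2.28 (2.14 to 2.43), Fn1, fibronectin, at 2.27 (2.05 to 2.52), and Ms4a6d at 2.15 (1.40 to 3.36). Ccr2, the receptor by which these cells leave the marrow, had 1312 counts in SD 12 h and 676 in SASD 12 h, a ratio of 1.80 (1.64 to 1.98). Yet Ly6c2, the defining surface marker, was close to equal with 552 counts in SD 12 h against 509 in SASD 12 h, a ratio of 1.01 (0.890 to 1.14). Nonclassical markers had 1 of 15 higher (6.67%, against 2.83% of all measured genes), Cd300ld at 2.04 (1.84 to 2.26), and a median of 0.17.

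The lists of lymphocyte, platelet and red cell markers had medians slightly below 0. Of 20 B cell markers 0 were 2-fold apart and 13 had an interval wholly below 1, with a median of -0.10. Cd79a, a signalling chain of the B cell receptor, had 7533 counts in SD 12 h and 7384 in SASD 12 h, a ratio of 0.946 (0.916 to 0.977), and Cd74, the invariant chain of MHC class II, was close to equal at 1.01 (0.993 to 1.02). Of 23 T cell markers 17 had an interval below 1, and the median was -0.18. Cd3e, a subunit of the T cell receptor complex, stood at 0.871 (0.813 to 0.933). Foxp3, the factor of regulatory T cells, was farthest from 1 with 52 counts in SD 12 h against 89 in SASD 12 h and a ratio of 0.542 (0.377 to 0.772). NK and cytotoxic markers had a median of -0.20, with Cma1, a mast cell chymase gene that NK cells also express, at 0.569 (0.339 to 0.940).

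The log2 ratios of all 16 measured platelet markers lay below 0, though by little. Their median was -0.16, and Ppbp, a platelet chemokine, had 21539 counts in SD 12 h and 24105 in SASD 12 h, a ratio of 0.829 (0.814 to 0.844). Erythroid markers had a median of -0.28. Hbb-bs, an adult β-globin, had 206259 counts in SD 12 h against 261624 in SASD 12 h and a ratio of 0.731 (0.727 to 0.736), and its level fell by 7632 CPM, more than that of any other gene. Alas2, the first enzyme of haem synthesis in red cell precursors, stood at 0.723 (0.712 to 0.735). Cytosolic ribosomal proteins, mitochondrially encoded genes, MHC class II genes and the GIMAP family of lymphocytes had 0 genes 2-fold apart, and so had MHC class I presentation, replication-dependent histones and genes of mitosis and DNA replication. Plasma cell and immunoglobulin genes had 1 of 12 measured genes higher (8.33%), again Xbp1, with a median of -0.13. The Ms4a4 and Ms4a6 cluster had 1 of 6 (16.7%), again Ms4a6d, with a median of 0.06. Of all measured genes 2.83% were higher. In 2 further lists single genes stood out. Siglecf, an eosinophil lectin, was at 3.26 (2.17 to 5.03) from 109 counts in SD 12 h against 31 in SASD 12 h, while the eosinophil gene Il5ra was at 0.915 (0.757 to 1.11). Siglecf was the 1 higher gene of 3 measured eosinophil, basophil and mast cell markers, whose median was -0.13. The log2 ratios of 2 of these markers lay below 0. Flt3, a receptor of dendritic cell precursors, was at 2.11 (1.46 to 3.10) from 98 counts in SD 12 h against 43 in SASD 12 h. It was the 1 higher gene of 9 measured dendritic cell markers, whose median was 0.12. Of these markers 6 lay above 0 and 3 below, the lowest being Clec9a with a log2 ratio of -0.35.

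**Figure D3:**
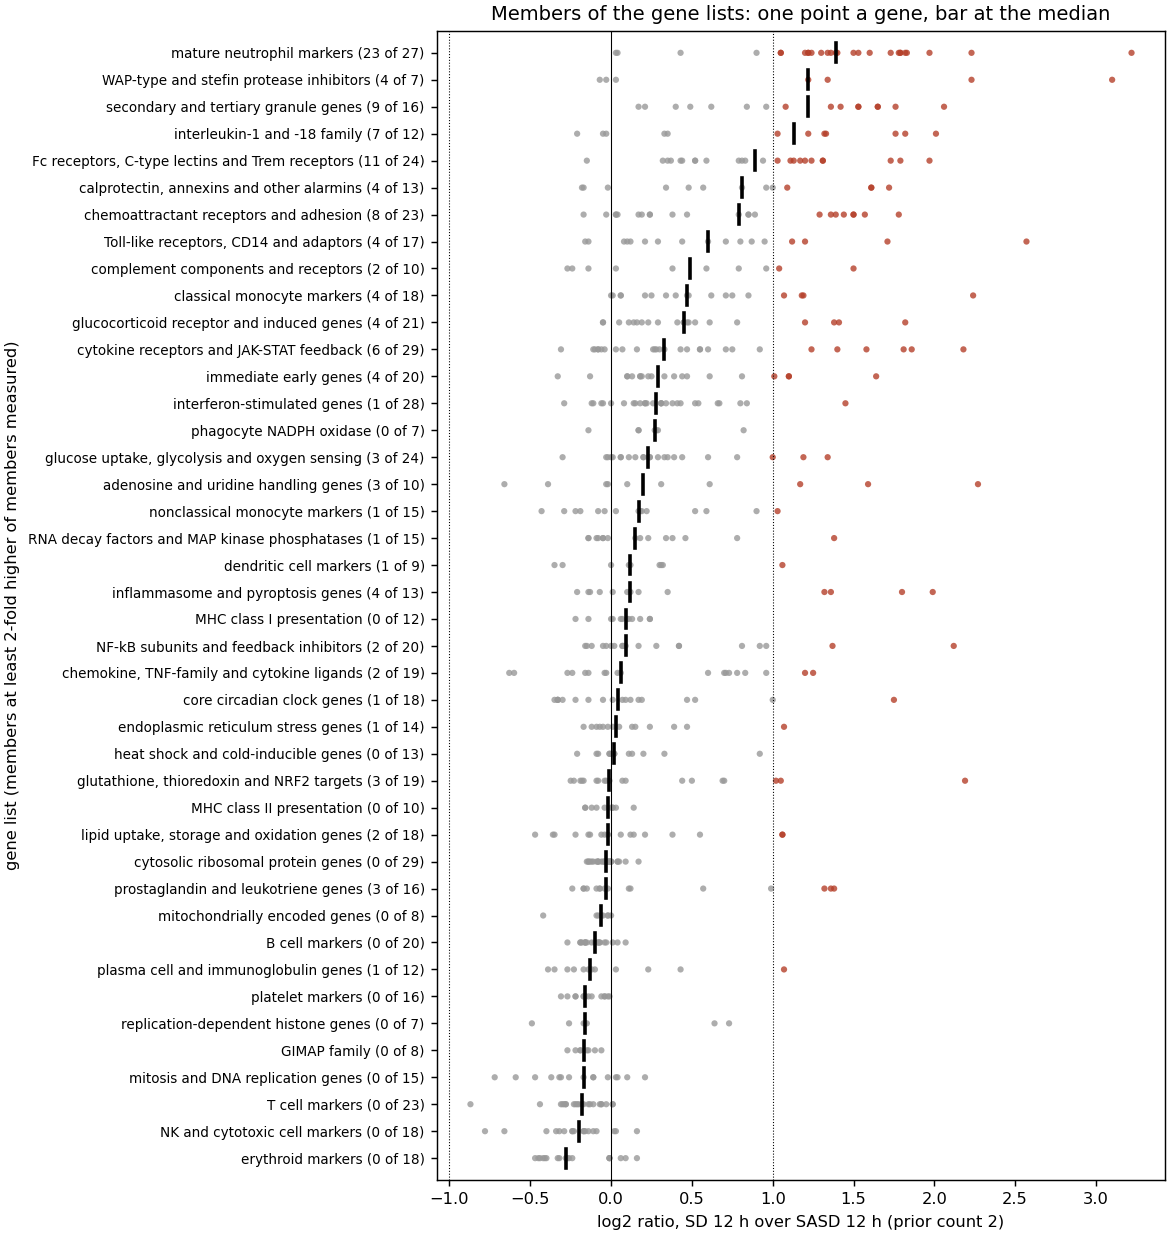
Log2 ratio of SD 12 h over SASD 12 h (horizontal axis, prior count 2) for members of gene lists with at least 7 measured genes, 1 point a gene, red where at least 2-fold higher, with a bar at the median of the list. Neutrophil, granule and interleukin-1 lists have medians past 1, and B cell, T cell, platelet and erythroid lists lie just below 0.

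In all, 652 of the 11295 measured genes belonged to a list, as did 102 of the 320 higher genes and 0 of the 11 lower genes. The lists were chosen with earlier results of these data known. With so few lower genes, a count of 0 does not set them apart from all measured genes. Of the 218 higher genes outside the lists some were deeply counted. Cd33, an inhibitory lectin of myeloid cells chosen here after its value was seen, had 6037 counts in SD 12 h and 1581 in SASD 12 h, a ratio of 3.54 (3.35 to 3.75). Spi1, which encodes the myeloid factor PU.1 and was also chosen after its value was seen, had 3440 counts in SD 12 h against 1412 in SASD 12 h and a ratio of 2.26 (2.12 to 2.41).

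The 11 lower genes were sparsely counted. Slc6a14, an amino acid transporter of epithelia, had 21 counts in SD 12 h and 56 in SASD 12 h, a ratio of 0.348 (0.200 to 0.584). Plet1, a surface protein of epithelial precursors, had 31 counts in SD 12 h against 70 in SASD 12 h and a ratio of 0.411 (0.260 to 0.636), and Muc4, an epithelial mucin, 30 counts in SD 12 h against 57 in SASD 12 h and a ratio of 0.488 (0.303 to 0.773). These 3 were also the lower genes that lay at least 2-fold lower in SD at 6 h, with log2 ratios of -2.43, -2.45 and -2.71, and at 48 h, with -3.32, -3.33 and -1.90, in pairs that share no library with the one at 12 h. The remaining 8 had ratios from 0.381 (0.199 to 0.697), that of the ion channel gene Hcn3, to 0.476 (0.263 to 0.836), that of Tfpi, an inhibitor of coagulation. Slc35g1, the best counted of these with 45 counts in SD 12 h against 101 in SASD 12 h, stood at 0.413 (0.284 to 0.593) and Tmem216, a ciliary protein, at 0.440 (0.270 to 0.701). Gm30054 was at 0.453 (0.304 to 0.665), Gsta2, a glutathione transferase, at 0.455 (0.273 to 0.741) and the replication factor Pclaf at 0.464 (0.265 to 0.791), while 1110032F04Rik lay between Pclaf and Tfpi.

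Of the 320 higher genes, 93 (29.1%) had another higher gene as the next measured gene along the chromosome, and of the 10968 other measured genes with a position 527 (4.8%) had a higher gene there. The 93 formed 52 pairs, of which 43 were within 50000 bases and 7 overlapped, where reads could not be assigned with certainty. On chromosome 17, Plin5, Lrg1 and Sema6b followed each other with gaps of 2081 and 1083 bases. On chromosome 1, Tns1, Rufy4, Cxcr2 and Cxcr1 formed another run, with gaps of 1091, 5765 and 30538 bases. Clec4n, Clec4d and Clec4e on chromosome 6 and S100a6, S100a8 and S100a9 on chromosome 3 were runs of related genes. These runs were picked for naming after they were seen.

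The pairs at 6, 24 and 48 h share no library with the one at 12 h and show where it stands in time. At 6 h, 12 of 11537 measured genes (0.104%) were at least 2-fold higher in SD and 104 (0.901%) lower. At 24 h, 432 of 11135 (3.88%) were higher and 356 (3.20%) lower, and at 48 h, 522 of 12608 (4.14%) were higher and 205 (1.63%) lower. Of the 320 genes higher at 12 h, 305 were measured at 6 h, and 1 of them, Fos, was at least 2-fold higher there (0.328%) and 5 lower, with a median log2 ratio of -0.01. At 24 h, 159 of the 305 measured (52.1%) were at least 2-fold higher in SD and 2 lower, with a median of 1.02. At 48 h, 169 of 318 (53.1%) were higher and 0 lower, with a median of 1.05. Read from the other side, they were 8.33% of the 12 genes higher at 6 h, 36.8% of the 432 at 24 h and 32.4% of the 522 at 48 h. The neutrophil markers, 23 of which were among the 320, had medians of 0.09, 1.39, 1.36 and 1.93 at 6, 12, 24 and 48 h.

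**Figure D4:**
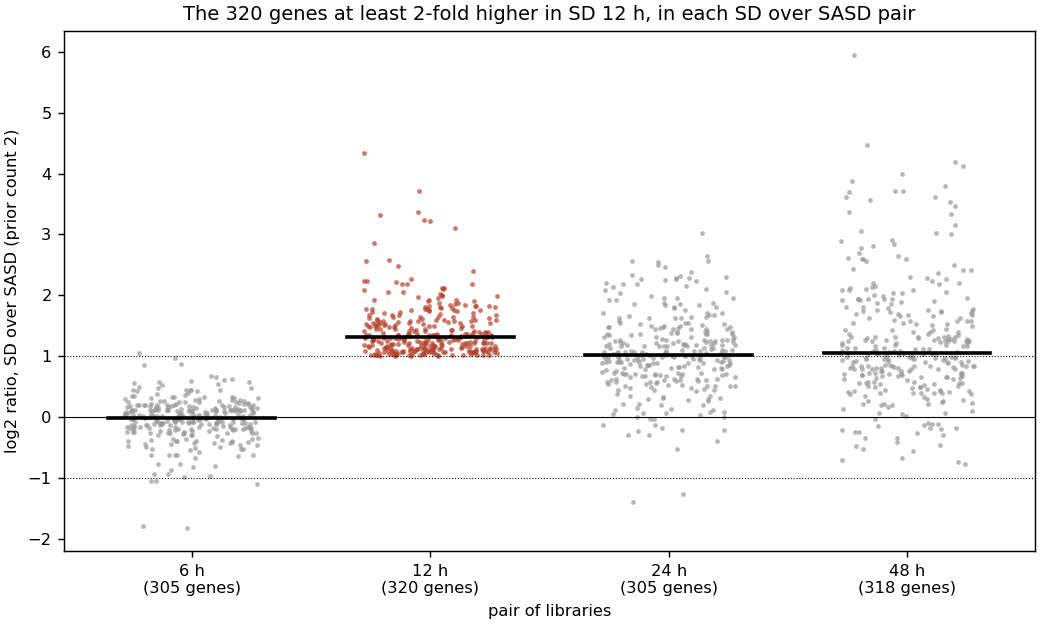
Log2 ratio of SD over SASD (vertical axis, prior count 2) at 6, 12, 24 and 48 h for the 320 genes at least 2-fold higher in SD 12 h, 1 point a gene measured in that pair, with a bar at the median. The points centre on 0 at 6 h and on about 1 at 24 and 48 h; the 12 h points, in red, lie above 1 because they were chosen so.

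The levels in single libraries place both sides of the 12 h difference. SD 48 h, SASD 48 h and Con differed from the other libraries in haemoglobin share and in olfactory receptor genes counted. Comparisons of 12 h levels with these libraries cross that difference. The 320 genes summed to 16970, 31943, 37353 and 40461 CPM in SD at 6, 12, 24 and 48 h, to 16215, 11933, 17221, 14938 and 13401 in SASD at 6, 12, 24, 48 and 120 h, and to 10906 in Con. SD 12 h was thus above all SASD libraries and Con, and SASD 12 h was the lowest SASD library. Since the genes were chosen on the SD 12 h and SASD 12 h libraries, the height of SD 12 h and the low level of SASD 12 h are partly set by that choice. Gene by gene, the median log2 ratio over Con was 1.36 for SD 12 h and 0.06 for SASD 12 h, and over SASD 12 h it was 0.55 for SASD 6 h, in comparisons that share libraries with the one at 12 h. The neutrophil markers summed to 4170, 7304, 8308 and 7974 CPM in SD at 6, 12, 24 and 48 h, to 3987, 2981, 4827, 2452 and 2420 in the SASD libraries, and to 2094 in Con, and their part in the difference was not tested.

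Single genes took different courses through the later times. Here too, steps from 24 to 48 h and comparisons with Con cross the difference between libraries in haemoglobin share and olfactory receptor genes counted. Il1b stood at 204, 479, 454 and 440 CPM in SD at 6, 12, 24 and 48 h, against 119 CPM in SASD 12 h, 134 to 163 CPM in the other SASD libraries and 97.8 CPM in Con. Socs3 was likewise highest at 12 h, at 103, 326, 285 and 238 in SD and 65.0 to 100 in SASD. Its level in Con was 44.7. S100a9 instead continued upward, at 679, 1313, 1993 and 4376 CPM in SD, against 397 to 726 in SASD and 600 in Con. Csf3r peaked at 12 h with 990, 1912, 1714 and 1227 in SD, against 625 to 991 in SASD and 560 in Con. Plin5 was highest in SD 12 h, at 1.15, 6.85, 1.88 and 1.64 in SD and 0.543 to 1.43 in SASD, with 0.122 in Con. Vcan and Fn1, of classical monocytes, had low levels in both 12 h libraries. Vcan stood at 11.8 in SD 12 h and 2.39 in SASD 12 h, against 13.7 in Con and 93.3 in SD 24 h, and Fn1 at 130 in SD 12 h and 57.3 in SASD 12 h, against 182 in Con.

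**Figure D5:**
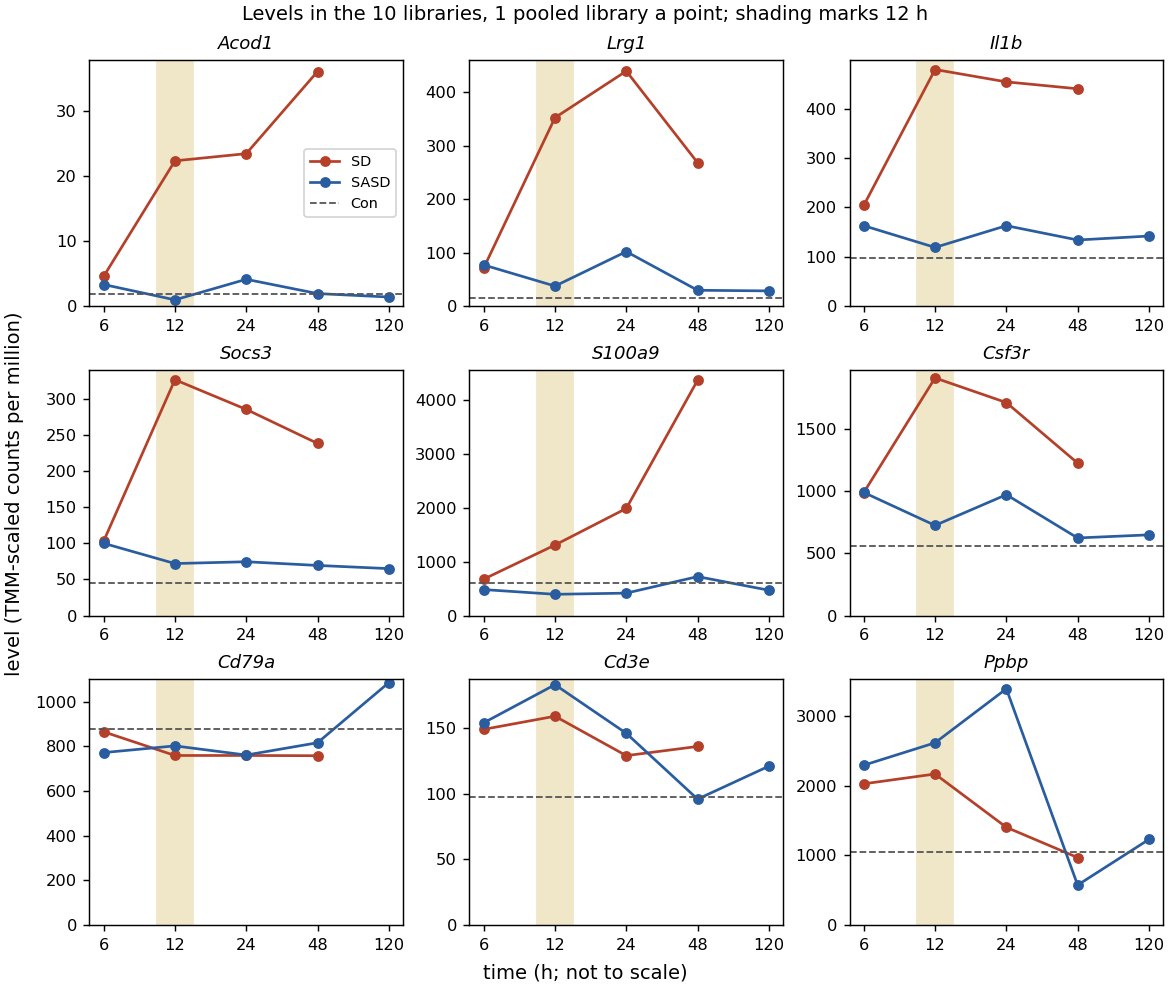
Level in TMM-scaled CPM (vertical axes, from 0) of 9 genes in the SD and SASD libraries over time (horizontal axis, hours, not to scale) with Con as a dashed line, each point 1 pooled library and 12 h shaded. Acod1, Lrg1, Il1b, Socs3, S100a9 and Csf3r part between SD and SASD from 12 h on. Cd79a, Cd3e and Ppbp, of B cells, T cells and platelets, are only slightly lower in SD 12 h than in SASD 12 h.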

How the data were processed

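Each library was a pool of RNA from the blood of 3 mice. Trimming used Trimmomatic 0.39 and alignment to mm10 used STAR 2.7.9a, per the submitters' processing notes. The deposited values were raw counts of read pairs over exons per gene, made by the authors with featureCounts 2.0.3, with no strand option and without reads that map to several places or overlap several genes, per the file headers. Antisense genes, overlapping genes and genes with near copies were therefore uncertain. From these counts TMM factors over the 10 libraries were computed with edgeR 4.0.16 (R 4.3.3), and log2 ratios of CPM with a prior count of 2 were taken for genes averaging 25 counts or more over the pair. Ratios printed for a gene were free of a prior count. Their intervals came from scipy 1.17.1 (Python 3.11.15) and cover counting error only. They were tested on counts simulated with Poisson error alone, so that test says nothing of variation between mice or libraries. A gene was called higher or lower at 2-fold. With 1 library a group no test was possible, and p-values are not given.

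The genes named were the 20 with the highest and the 11 with the lowest log2 ratio and, in each of 46 gene lists, up to 6 measured members with the largest ratios in either direction and the member with the most counts, with cell type markers near 0; others are marked or, like list members at low counts, were named to account for the list. Of 823 list entries 822 were in the table. The genes, lists and rules were chosen with earlier results of these data known. Gene positions, types and neighbours came from GENCODE and promoters from RefSeq. Alternatives were DESeq2 1.42.0 size factors, total counts, TMM on the pair, TMM without haemoglobin genes, other count minimums and other prior counts.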

Additional observations from a re-analysis of the deposited data

Results flagged for a closer look

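Of the genes named for their ratios or as members of a list, 4 were at least 2-fold apart between SD and SASD at 12 h and at least 2-fold apart the other way in another pair. Pclaf, a replication factor, had a log2 ratio of SD over SASD of -1.06 at 12 h and 2.81 at 48 h. Gsta2, a glutathione transferase, had -1.10 at 12 h and 1.29 at 48 h. Ly6g, the neutrophil antigen, had -1.06 at 6 h and 1.83 at 12 h, and the cytokine gene Il18 had -1.11 at 6 h and 1.22 at 12 h. Short of the 2-fold limit in the other pair, Fn1 had a ratio of 2.27 (2.05 to 2.52) at 12 h and 0.833 (0.810 to 0.856) at 48 h. Each pair is 1 library a side, and the difference between the pairs was not tested.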

How the results depend on the processing

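No paired analysis was possible because each group had 1 library, and no replicate could be left out. The 320 genes at least 2-fold higher numbered 303 to 330 under other scalings and prior counts, and 216 to 444 with a mean count minimum of 100 or 10. With a minimum of 1 count in the pair they numbered 1406, since sparse genes then entered. The 11 lower genes numbered 17 with DESeq2 size factors, 79 with a minimum of 10, 0 with a minimum of 100, 744 with 1 count in the pair, 17 with a prior count of 0.5 and 7 with a prior count of 5. Intervals wholly past 2-fold numbered 143 to 188, and the median of neutrophil markers was 1.36 to 1.40. The share of the higher genes also higher at 6 h was 0.328%, and 0.50% with a minimum of 100. The share was 48.0% to 68.3% at 24 and 48 h. Under DESeq2 size factors the median of the heat shock list was -0.01 against 0.02, and that of the endoplasmic reticulum stress list 0.00 against 0.03. Of the scalings, DESeq2 size factors moved the median of all genes most, by -0.028 log2 units. With 1 library a side, counting error is the only error these data give.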
